A study of Mus musculus with 9 samples.

Results

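The CC chemokines are small secreted proteins that attract leukocytes. The 10 members described here, Ccl2, Ccl3, Ccl4, Ccl6, Ccl7, Ccl8, Ccl9, Ccl12, Ccl17 and Ccl22, were taken by name from the 19698 genes that a probe represented on the arrays. The RefSeq accession of each probe gave the gene, and each member had 1 probe. Expression was measured in 9 one-colour Agilent arrays of lung from male C57BL/6 mice, 4 of them labelled control and 5 labelled as irradiated left lung tissue. An age of 10 weeks is given for every array. The methods describe several times after irradiation, so the age at collection may differ between arrays. The design text gives a single dose of radiation to the left lung. For no array do the labels state the dose, the part of the lung or the time after irradiation, although the methods describe a focal and a diffuse field, irradiated and neighbouring tissue, and several times. The 5 irradiated arrays may therefore not be repeats of 1 condition. The methods further state that RNA from triplicate experiments was pooled for each time point, so the spread between arrays is not the spread between animals. Anaesthesia with zoletil and rompun is given for irradiation, in the same words for every array.

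A CC chemokine has a pair of adjacent cysteines near its amino terminus. It binds to a membrane-spanning receptor coupled to G proteins on the leukocyte that it attracts. Ccl2, Ccl7 and Ccl12 are monocyte chemoattractant proteins and act on Ccr2, the receptor that brings monocytes out of the bone marrow. Ccl8 belongs to the same family by sequence, and in mice acts on Ccr8. Ccl3 and Ccl4 are the macrophage inflammatory proteins, and Ccl3 acts on Ccr1. Ccl6 and Ccl9 are rodent chemokines of Ccr1. Ccl17 and Ccl22 act on Ccr4, which marks T helper type 2 and regulatory T cells. In lung, CC chemokines come from macrophages, dendritic cells, epithelium and stromal cells.

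All 10 CC chemokines had a higher mean in the irradiated than in the control arrays, with log2 differences between 0.53 and 2.09. Their median log2 difference was 1.14, against −0.0037 over all 39303 probes tested. The members were chosen with earlier results of these data known, so this contrast is a description and not a test. The 12 other CC ligands had a median of 0.17. Ccl6 alone passed the test across all probes (limma, Benjamini-Hochberg adjusted p under 0.05), where 75 probes were higher (0.191%) and 56 were lower (0.142%) in the irradiated arrays. At an unadjusted p under 0.05, 6 of the 10 differed in either direction, all of them higher, against 3907 of the 39303 probes in either direction. In Ccl3, Ccl4 and Ccl6 every irradiated array lay above every control array, a pattern that 2.50% of all probes showed. A difference of at least 2-fold was reached by Ccl2, Ccl3, Ccl7, Ccl8, Ccl12 and Ccl22, against 1.55% of all probes. Here a log2 value is the log2 of the normalized probe intensity, and a log2 difference of 1 is 2-fold. In lung tissue, more cells of a type and more RNA per cell cannot be told apart.

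The arrays of 1 group differed in these genes, and part of that spread was shared by arrays that lay next to each other on the scanner image. By the spot positions on the scanner image, 4 pairs of arrays lay at the same height 1 step apart, each with 1 control and 1 irradiated array: control 1 with irradiated 2, control 2 with irradiated 3, control 3 with irradiated 4, and control 4 with irradiated 5. Irradiated 1 had no partner. The files do not say what else the arrays of a pair share. Over all probes, the deviations of paired arrays from their group means correlated between 0.20 and 0.46. With the pair as a block, a fit of 8 arrays that drops irradiated 1, Ccl2, Ccl3, Ccl7 and Ccl12 passed the test and Ccl6 did not, where 1.54% of all probes were higher and 1.25% were lower. With the pairs as a random block, which keeps all 9 arrays, Ccl2, Ccl3, Ccl4, Ccl6, Ccl7 and Ccl12 passed, against 4.09% of all probes. Each of the 10 was higher in the irradiated array of all 4 pairs, and so were 14.7% of all probes.

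**Figure D1:**
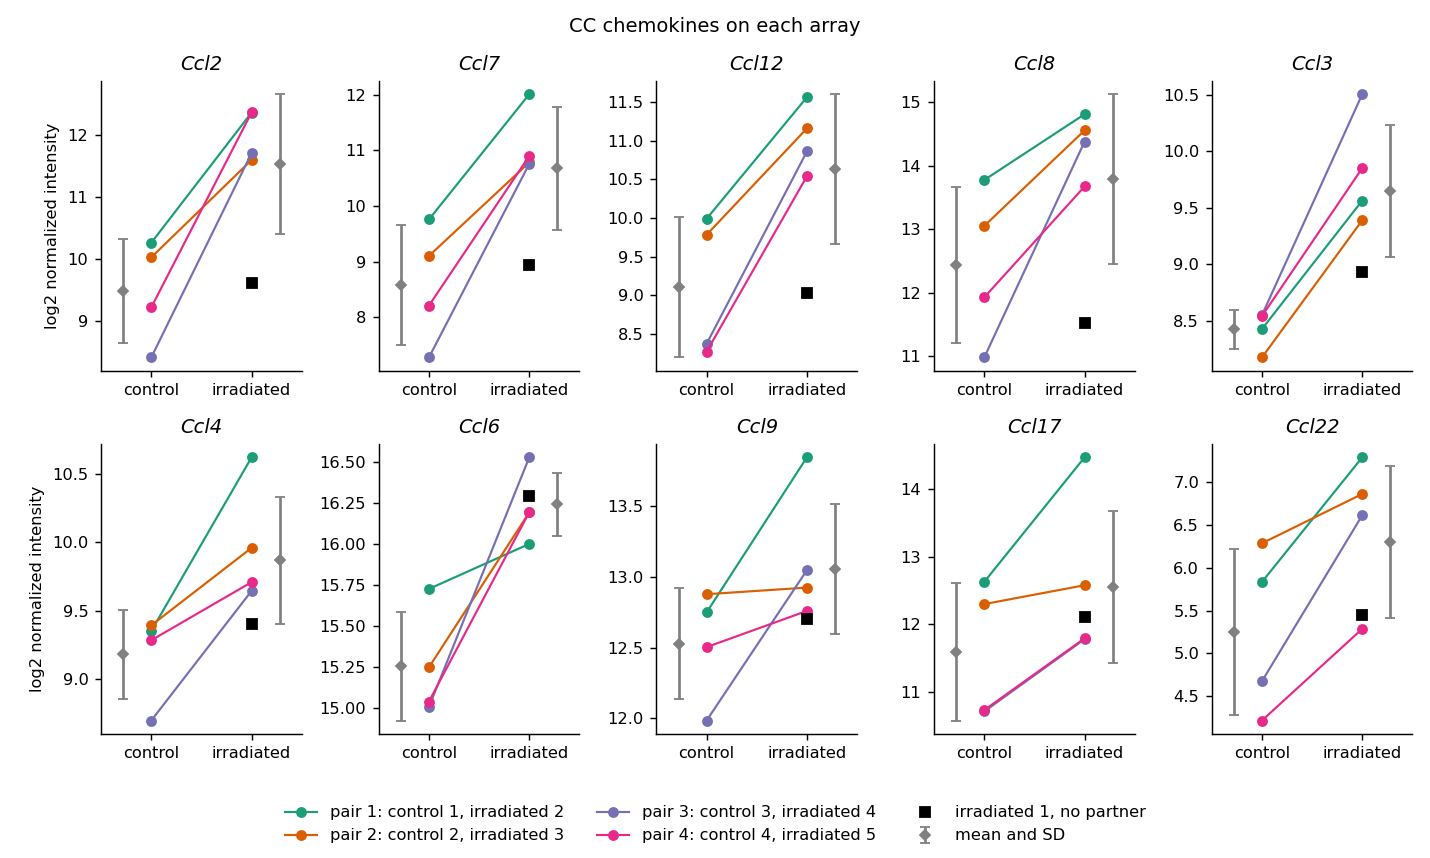
Log2 normalized intensity (vertical axis, a separate scale for each gene) of the 10 CC chemokines on each array. Lines join the control and irradiated array of a scan pair, the black square is irradiated 1, and grey diamonds with bars are group means with SD. Every line runs upward, and in Ccl2, Ccl7, Ccl8, Ccl9, Ccl12, Ccl17 and Ccl22 irradiated 1 lies within the control range.

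The monocyte chemoattractants had the widest differences. Ccl2 was at 10.27, 10.03, 8.42 and 9.23 on log2 scale in controls 1 to 4, and at 9.63, 12.37, 11.60, 11.72 and 12.37 in irradiated 1 to 5. Irradiated 2 to 5 were above every control array, and irradiated 1 was below controls 1 and 2. The mean was 9.49 ± 0.84 (SD, n = 4) in control and 11.54 ± 1.13 (SD, n = 5) in irradiated arrays. The log2 difference was 2.05 ± 0.57 (SE), or 4.14-fold with a 95% confidence interval of 1.70 to 10.1, and it did not pass (limma adjusted p = 0.216). Within the 4 pairs Ccl2 was higher by 2.10, 1.57, 3.29 and 3.14 on the log2 scale. The blocked log2 difference of 2.51 ± 0.31 (SE) passed (limma adjusted p = 0.0355). In the authors' normalized table the log2 difference of Ccl2 was 1.44 without and 1.80 with the block, and neither passed (limma adjusted p = 0.644 and 0.0536). Irradiated 1 is left out of the blocked fit, and without it the unblocked fit has the same difference by construction and passed (limma adjusted p = 0.0232). Without any one of the other 8 arrays the unblocked difference did not pass (limma adjusted p = 0.243 to 0.428).

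Ccl7, encoded next to Ccl2 on chromosome 11, showed the same order of arrays at both ends of the control group. Its log2 values were 9.76, 9.10, 7.28 and 8.21 in controls 1 to 4 and 8.94, 12.01, 10.78, 10.76 and 10.90 in irradiated 1 to 5. Irradiated 1 fell below controls 1 and 2, and the other 4 irradiated arrays lay above all controls. In Ccl7 the log2 difference was 2.09 ± 0.62 (SE), or 4.25-fold with a 95% confidence interval of 1.63 to 11.1 (limma adjusted p = 0.243). Within the pairs it was higher by 2.25, 1.68, 3.47 and 2.68, and the blocked log2 difference of 2.50 ± 0.29 (SE) passed (limma adjusted p = 0.0314).

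Ccl12, the monocyte chemoattractant protein 5 of mice, was at log2 values of 9.99, 9.78, 8.37 and 8.27 in controls 1 to 4 and 9.03, 11.57, 11.16, 10.86 and 10.54 in irradiated 1 to 5. Controls 3 and 4 were low together, irradiated 1 lay between the low and the high controls, and irradiated 2 to 5 exceeded every control. In Ccl12 the log2 difference was 1.53 ± 0.54 (SE), or 2.89-fold with a 95% confidence interval of 1.26 to 6.64 (limma adjusted p = 0.334). Within the pairs it was higher by 1.58, 1.38, 2.49 and 2.27. The blocked log2 difference of 1.92 ± 0.21 (SE) passed (limma adjusted p = 0.0289), and in the authors' table it was 1.48 and did not pass (limma adjusted p = 0.0571).

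Ccl8 followed the same arrays with a wider spread. It was at log2 values of 13.78, 13.05, 10.98 and 11.93 in controls 1 to 4 and 11.52, 14.81, 14.56, 14.38 and 13.68 in irradiated 1 to 5. Irradiated 2, 3 and 4 lay above every control, irradiated 5 was below control 1, and irradiated 1 was above control 3 only. Between groups, Ccl8 differed by 1.35 ± 0.73 (SE), or 2.56-fold with a 95% confidence interval of 0.83 to 7.89 (limma adjusted p = 0.605). Without control 3 it was 0.87, less than 2-fold. Within the pairs Ccl8 was higher by 1.04, 1.51, 3.40 and 1.75, and the blocked log2 difference of 1.92 ± 0.39 (SE) did not pass (limma adjusted p = 0.0722), but passed with 75th percentile scaling and with the background filter on all 9 arrays (limma adjusted p = 0.0473 in both). In the order of genes given by RefSeq for GRCm38.p6, Ccl2, Ccl7, Ccl12 and Ccl8 lie in 1 cluster on chromosome 11, with the eosinophil chemokine Ccl11 between Ccl7 and Ccl12. Ccl11, named for its place, was at 8.95 ± 0.64 (SD, n = 4) in control and 9.44 ± 0.56 (SD, n = 5) in irradiated arrays. Its log2 difference of 0.50 ± 0.35 (SE) did not pass (limma adjusted p = 0.730), and was 0.31 without control 4 and 0.78 without control 1. Within the pairs Ccl11 was higher by 0.20, 1.61, 0.11 and 0.70, and the blocked difference of 0.65 did not pass (limma adjusted p = 0.251).

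The upstream sequences of the neighbours Ccl12 and Ccl8 are shown because these genes lie side by side and had their lowest and highest irradiated values on the same arrays. Each run holds the 250 bases before the annotated start from RefSeq, build GRCm38.p6, read 5′ to 3′ along the gene. Capitals mark matches to 5 motifs on either strand: the NF-kB consensus, TTCNNNGAA and the same with 4 bases between TTC and GAA, which are palindromes bound by STAT proteins, TGANTCA, an AP-1 element, and TATAAA, the TATA box.
Ccl12 (chr11:82101595-82101844, plus strand): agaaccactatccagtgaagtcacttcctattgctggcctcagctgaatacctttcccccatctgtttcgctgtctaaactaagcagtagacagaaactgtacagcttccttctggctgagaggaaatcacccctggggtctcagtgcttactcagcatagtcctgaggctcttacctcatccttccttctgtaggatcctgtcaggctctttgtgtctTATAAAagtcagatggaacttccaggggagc
Ccl8 (chr11:82114935-82115184, plus strand): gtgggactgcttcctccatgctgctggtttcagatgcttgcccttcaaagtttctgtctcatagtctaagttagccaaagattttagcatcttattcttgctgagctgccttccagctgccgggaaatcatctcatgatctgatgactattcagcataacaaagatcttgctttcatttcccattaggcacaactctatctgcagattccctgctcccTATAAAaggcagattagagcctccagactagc
Both held TATAAA, starting 31 bases before the start in Ccl12 and 32 bases in Ccl8, and neither held any of the other 4 motifs. TATAAA occurred in 12.4% of 32851 promoters of this length. A match describes letters in the window and is not evidence of binding.

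Ccl3 and Ccl4, neighbours on chromosome 11, did not overlap between groups. Ccl3 was at log2 values of 8.43, 8.18, 8.55 and 8.54 in controls 1 to 4, a narrow range. In irradiated 1 to 5 it was at 8.93, 9.56, 9.39, 10.50 and 9.85, all above the highest control, with irradiated 1 again the lowest. The log2 difference was 1.22 ± 0.27 (SE), or 2.33-fold with a 95% confidence interval of 1.53 to 3.56 (limma adjusted p = 0.113). Within the pairs Ccl3 was higher by 1.14, 1.21, 1.95 and 1.31, and the blocked log2 difference of 1.39 ± 0.15 (SE) passed (limma adjusted p = 0.0305). The unblocked difference passed without irradiated 1 (limma adjusted p = 0.0303), but not without any one of the other 8 arrays (0.152 to 0.256).

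Ccl4 moved less. It was at log2 values of 9.35, 9.39, 8.70 and 9.29 in controls 1 to 4 and 9.41, 10.62, 9.96, 9.65 and 9.71 in irradiated 1 to 5. Control 3 stood below the other controls, and irradiated 1 exceeded the highest control by little. Between groups, Ccl4 differed by 0.68 ± 0.25 (SE), or 1.61-fold with a 95% confidence interval of 1.10 to 2.35 (limma adjusted p = 0.347). Within the pairs Ccl4 was higher by 1.27, 0.57, 0.95 and 0.42, and the blocked difference of 0.79 ± 0.16 (SE) did not pass (limma adjusted p = 0.0675) except with the background filter on all 9 arrays (0.0454). As a random block the pairs gave 0.75 ± 0.17 (SE), which passed (limma adjusted p = 0.0245).

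Ccl6, a chemokine of macrophages and myeloid cells that acts on Ccr1, was the member that passed without a block. Its log2 values were 15.72, 15.25, 15.01 and 15.04 in controls 1 to 4 and 16.29, 16.00, 16.19, 16.53 and 16.19 in irradiated 1 to 5. The groups did not overlap, and here irradiated 1 was the second highest of its group rather than the lowest. The mean was 15.26 ± 0.33 (SD, n = 4) in control and 16.24 ± 0.19 (SD, n = 5) in irradiated arrays. The log2 difference was 0.98 ± 0.16 (SE), or 1.98-fold with a 95% confidence interval of 1.55 to 2.52 (limma adjusted p = 0.0416). The call is close to the threshold and held in 8 of 21 alternatives. It was lost with 75th percentile scaling (limma adjusted p = 0.0524), the authors' table (0.0602), no intensity trend (0.0792) and the replicate block (0.277). It held without control 1 (limma adjusted p = 0.0250) or irradiated 1 (0.0364), and was lost without control 2 (0.117), control 3 (0.134), control 4 (0.144), irradiated 2 (0.0696), irradiated 3 (0.115), irradiated 4 (0.109) or irradiated 5 (0.0920), while the log2 difference stayed between 0.90 and 1.14. Within the pairs Ccl6 was higher by 0.27, 0.94, 1.52 and 1.15, and the blocked difference of 0.97 ± 0.20 (SE) did not pass (limma adjusted p = 0.0761).

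Ccl9, encoded next to Ccl6, had the smallest difference of the 10. It was at log2 values of 12.75, 12.88, 11.98 and 12.50 in controls 1 to 4 and 12.70, 13.85, 12.92, 13.05 and 12.76 in irradiated 1 to 5. Irradiated 1 and 5 lay within the control range. For Ccl9 the log2 difference was 0.53 ± 0.25 (SE), or 1.44-fold with a 95% confidence interval of 0.98 to 2.13 (limma adjusted p = 0.541). It was 0.33 without irradiated 2 and 0.35 without control 3. Within the pairs Ccl9 was higher by 1.10, 0.05, 1.06 and 0.26, and the blocked difference of 0.61 ± 0.21 (SE) did not pass (limma adjusted p = 0.187).

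The upstream sequences of Ccl6, Ccl3 and Ccl9 are shown because these genes lie in 1 run on chromosome 11, in the order Ccl9, Ccl6, Ccl3 and Ccl4. The window, build and capitals are as for Ccl12 and Ccl8.
Ccl6 (chr11:83593088-83593337, minus strand): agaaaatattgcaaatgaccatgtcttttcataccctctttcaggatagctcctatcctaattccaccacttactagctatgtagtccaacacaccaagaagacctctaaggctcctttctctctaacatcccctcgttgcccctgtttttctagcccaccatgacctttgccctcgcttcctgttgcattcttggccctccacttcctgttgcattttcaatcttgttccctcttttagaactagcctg
Ccl3 (chr11:83649379-83649628, minus strand): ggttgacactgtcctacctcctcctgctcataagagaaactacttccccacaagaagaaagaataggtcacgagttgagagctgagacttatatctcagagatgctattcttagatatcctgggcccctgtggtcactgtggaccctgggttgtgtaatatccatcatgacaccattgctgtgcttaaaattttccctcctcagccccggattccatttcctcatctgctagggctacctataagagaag
Ccl9 (chr11:83578637-83578886, minus strand): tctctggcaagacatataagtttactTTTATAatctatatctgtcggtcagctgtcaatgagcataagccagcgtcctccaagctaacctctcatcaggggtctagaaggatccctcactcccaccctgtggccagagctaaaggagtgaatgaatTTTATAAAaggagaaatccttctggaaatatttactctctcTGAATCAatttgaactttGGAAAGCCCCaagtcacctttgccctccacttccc
The windows of Ccl6 and Ccl3 held none of the 5 motifs. The window of Ccl9 held TGANTCA at 53 bases and the NF-kB consensus at 35 bases before the start, and 3 matches to TATAAA, of which 2 overlap. TGANTCA was found in 6.75% and the NF-kB consensus in 7.25% of the 32851 promoters.

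**Figure D2:**
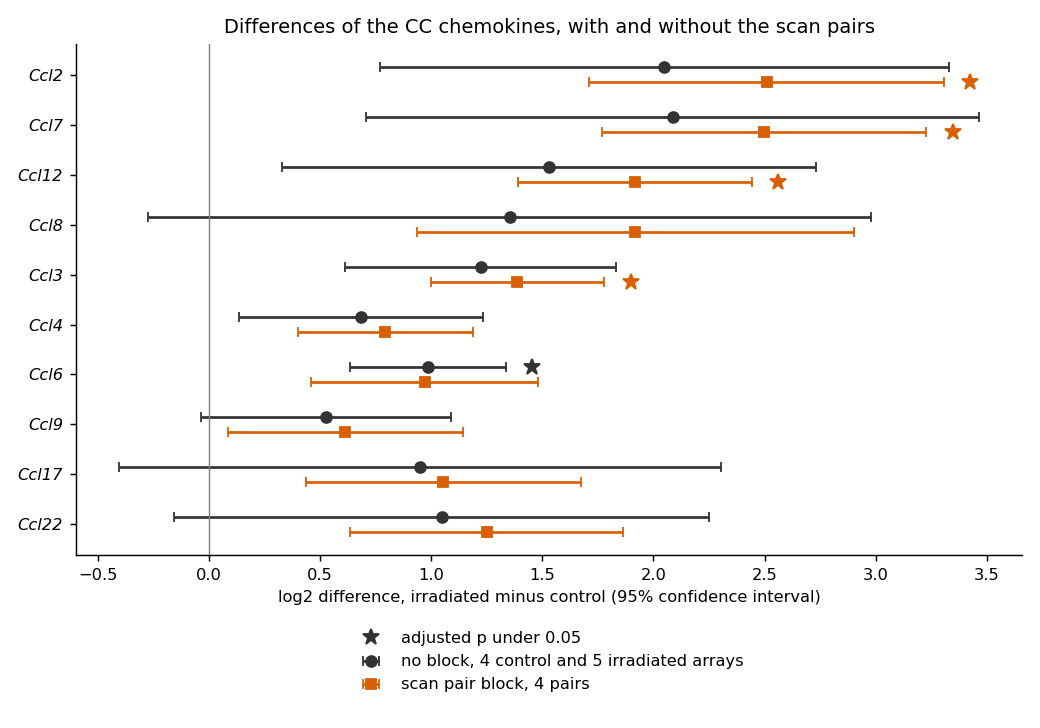
Log2 difference, irradiated minus control (horizontal axis), with 95% confidence intervals for each CC chemokine, without a block over 4 control and 5 irradiated arrays (circles) and with the scan pair as a block over 4 pairs (squares); a star marks an adjusted p under 0.05. All estimates lie above 0, from 0.53 to 2.09 without the block, and the intervals without the block reach below 0 for Ccl8, Ccl9, Ccl17 and Ccl22.

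The Ccr4 ligands Ccl17 and Ccl22, which dendritic cells and macrophages release, overlapped between groups. Ccl17 was at log2 values of 12.63, 12.30, 10.72 and 10.74 in controls 1 to 4 and 12.11, 14.46, 12.58, 11.78 and 11.80 in irradiated 1 to 5. Irradiated 2 alone lay above every control, while controls 3 and 4 lay below every irradiated array. Ccl17 had a log2 difference of 0.95 ± 0.61 (SE), or 1.93-fold with a 95% confidence interval of 0.76 to 4.93 (limma adjusted p = 0.697). Without irradiated 2 it was 0.47, against 0.95 with it. Within the pairs Ccl17 was higher by 1.83, 0.28, 1.06 and 1.06, and the blocked difference of 1.06 ± 0.24 (SE) did not pass (limma adjusted p = 0.0918).

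Ccl22 was at log2 values of 5.83, 6.29, 4.67 and 4.21 in controls 1 to 4 and 5.44, 7.29, 6.86, 6.61 and 5.29 in irradiated 1 to 5. It was the dimmest of the member probes against its background, well above it on 3 of 4 control and all 5 irradiated arrays, whereas the other 9 members were well above background on all 9 arrays. Irradiated 2, 3 and 4 lay above every control. For Ccl22 the log2 difference was 1.05 ± 0.54 (SE), or 2.07-fold with a 95% confidence interval of 0.90 to 4.76 (limma adjusted p = 0.585). It was 0.46 with normexp background correction and 0.56 in the authors' normalized table, both less than 2-fold. Within the pairs Ccl22 was higher by 1.46, 0.58, 1.94 and 1.07, and the blocked difference of 1.25 ± 0.24 (SE) did not pass (limma adjusted p = 0.0671). With normexp the blocked difference was 0.60 and passed (limma adjusted p = 0.0426), with the background filter on all 9 arrays it was 1.25 and passed (0.0442), and with the authors' table it was 0.74 and did not. Ccl22 and Ccl17 lie on chromosome 8, with Cx3cl1 between them. The upstream sequence of Ccl17 is shown because it held both STAT palindromes.
Ccl17 (chr8:94810203-94810452, plus strand): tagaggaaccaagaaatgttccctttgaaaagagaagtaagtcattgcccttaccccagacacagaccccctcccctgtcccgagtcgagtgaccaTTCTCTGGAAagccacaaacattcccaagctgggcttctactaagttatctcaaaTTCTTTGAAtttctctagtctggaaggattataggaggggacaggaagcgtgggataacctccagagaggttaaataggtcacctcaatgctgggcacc
The palindrome with 4 inner bases starts 154 bases and TTCNNNGAA starts 99 bases before the start. TTCNNNGAA was found in 7.02% of the promoters and the one with 4 inner bases in 5.85%. The window of Ccl22 held none of the 5 motifs.

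**Figure D3:**
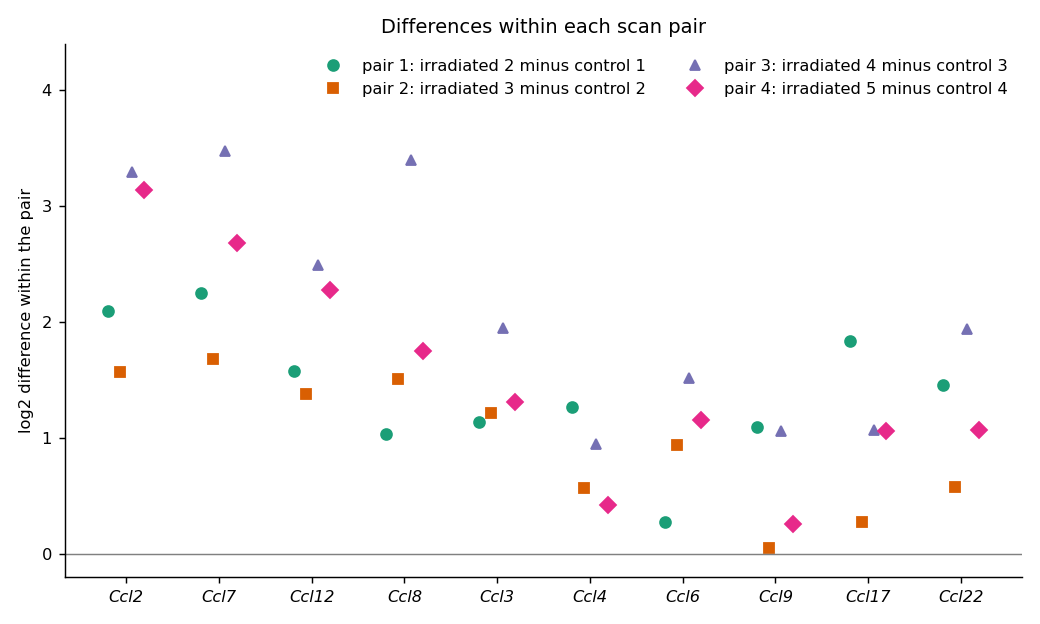
Log2 difference between the irradiated and the control array (vertical axis) within each of the 4 scan pairs for each CC chemokine. All 40 differences are above 0, from 0.05 for Ccl9 in pair 2 to 3.47 for Ccl7 in pair 3.

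The order of the arrays recurred across the members. Control 3 was the lowest control in 7 of the 10 and control 1 the highest in 6. Irradiated 1 was the lowest irradiated array in 7, and lay below the highest control in Ccl2, Ccl7, Ccl8, Ccl9, Ccl12, Ccl17 and Ccl22. Irradiated 2 was the highest in 7 and lay above every control in all 10. Without irradiated 1, limma called Ccl2, Ccl3 and Ccl6, against 0.738% of all probes, and the groups did not overlap in 6 members, Ccl2, Ccl3, Ccl4, Ccl6, Ccl7 and Ccl12, against 3.98% of all probes. The SD within a group had a median over the members of 0.87 in control and 0.93 in irradiated arrays, against 0.29 and 0.28 over all probes. The SD of the 4 differences within pairs had a median of 0.56 over the members and 0.24 over all probes.

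The calls made with the pairs as a block rest on few arrays. Without the pair of control 2 and irradiated 3, Ccl2, Ccl7 and Ccl12 passed and Ccl3 did not (limma adjusted p = 0.0574). No member passed without any one of the other 3 pairs, where the adjusted p of these 4 genes lay between 0.0845 and 0.194. Their log2 differences were at 1.23 or more in each of these fits. With the authors' table Ccl3 and Ccl7 passed and Ccl2 and Ccl12 did not. Without the intensity trend none of the 4 passed, at limma adjusted p from 0.0608 to 0.0695. The share of all probes called in these fits is not given here, so the losses cannot be called particular to these genes.

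Cell type markers were measured beside the chemokines. Ly6c2, Cd68, Zbtb46, Itgae, Ly6g and Trac were not matched to a probe, and every other marker was well above background on at least 1 array. Of the macrophage markers, 9 of 11 were higher in the irradiated arrays, with a median log2 difference of 0.46, and none passed without a block. The 2 lower ones were Marco, a scavenger receptor, at −0.63 and the lectin Siglecf at −0.47, both genes of alveolar macrophages, and with the pair as a block they were at −1.04 and −0.71 and did not pass (limma adjusted p = 0.184 and 0.265), although Siglecf passed as lower without the pair of control 2 and irradiated 3. With the pair as a block 6 passed, named here after their values were seen: Adgre1, the marker F4/80, the endotoxin co-receptor Cd14, the phagocytic receptor Mertk, and the complement genes C1qa, C1qb and C1qc, all higher, in a fit that called 1.54% of all probes higher. None of these 6 passed in any of the 4 fits without 1 pair or without the intensity trend. The 2 brightest of the list, the lysozyme gene Lyz2 and the growth factor receptor Csf1r, differed by 0.30 ± 0.33 and 0.09 ± 0.11 (SE) on the log2 scale. The summed intensity of the 11 was 100280 to 178040 in control and 152020 to 195630 in irradiated arrays. Of the dendritic cell markers 6 of 7 were higher, with a median of 0.46 and a summed intensity of 16076 to 19114 in control and 13157 to 22997 in irradiated arrays. The lectin gene Cd209a passed with the block (log2 difference 0.68, limma adjusted p = 0.0348) but in none of the 4 fits without 1 pair, and Ccr7, which is also among the receptors, was at −0.26 without it. Batf3 and Fscn1 passed as higher in the blocked fit without the pair of control 2 and irradiated 3. Fscn1 and Xcr1 did so beside Cd209a with the block and the background filter on all 9 arrays. None of the list passed with the block in the authors' table or without the intensity trend. The part of macrophage and dendritic cell markers in the chemokine differences was not tested.

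Monocyte markers differed in both directions. Of these, 3 of 6 were higher, with a median log2 difference of −0.02. Fn1, fibronectin, which many lung cells also make, was higher by 0.90 ± 0.13 (SE) and passed (limma adjusted p = 0.0325). With the pair as a block Fn1 passed too (limma adjusted p = 0.0306), but in none of the 4 fits without 1 pair and not without the intensity trend. The chitinase-like Chil3 was higher by 0.68 ± 0.36 (SE) and did not pass (limma adjusted p = 0.604). F13a1, the A subunit of coagulation factor XIII, named here after its values were seen, was lower on every irradiated than on any control array, by a log2 difference of −0.50 ± 0.10 (SE), and did not pass (limma adjusted p = 0.0763, and 0.0606 with the block). With the block it did pass as lower under 75th percentile scaling and with the background filter on all 9 arrays. The summed intensity of the list, led by Chil3 and Fn1, was 143820 to 344240 in control and 216420 to 391150 in irradiated arrays. All 6 neutrophil markers were lower, with a median of −0.42 and a summed intensity of 257910 to 442110 in control and 203580 to 339260 in irradiated arrays. None passed with or without the pair as a block, but Mmp9 passed as lower in the blocked fit without the pair of control 2 and irradiated 3. The brightest neutrophil markers, Csf3r and S100a9, were lower by 0.20 and 0.80 on the log2 scale. The T cell list had a median of 0.03, with Cd2 at −0.02 and Lck at 0.01, and the B cell list had one of −0.38, with Cd79b at −0.38 and Ms4a1 at −0.27, with no call in either.

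Lung markers were bright on every array, while muscle markers differed between arrays. The surfactant gene Sftpc, at 19.40 in both groups, and the club cell gene Scgb1a1, at 19.17 in control and 19.14 in irradiated arrays, lie at the top ranks, which quantile normalization sets alike on all arrays, so their levels do not show whether the arrays held the same amount of lung. The other lung markers had SDs in the control arrays from 0.12 for Hopx to 0.54 for Cldn18. Relative to the control mean of each gene, the lung list averaged between −0.16 and 0.17 on the log2 scale on every array. The summed cardiac muscle markers were at 14315 on irradiated 1 against 211770 to 415850 on the other 8 arrays. The brightest over the 9 arrays, Actc1 and Myl4, had log2 differences of −0.78 and −0.94. Myh6, the brightest in the control arrays at 16.49, had one of −1.97, with an SD of 4.03 in the irradiated arrays. The summed skeletal muscle markers were at 119640 on control 3 against 994 to 2727 on the other 8, and Acta1 and Tnnt3 had log2 differences of −1.51 and −2.60. None of the cardiac or skeletal markers passed. Control 3 and irradiated 1 are also the arrays on which most of the members were lowest in their group. Without both arrays 1 member passed, Ccl2, at a log2 difference of 2.16 (limma adjusted p = 0.0398), against 0.214% of all probes, and 6 members did not overlap, against 5.37%. The part of dissection in the chemokine values was not tested.

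**Figure D4:**
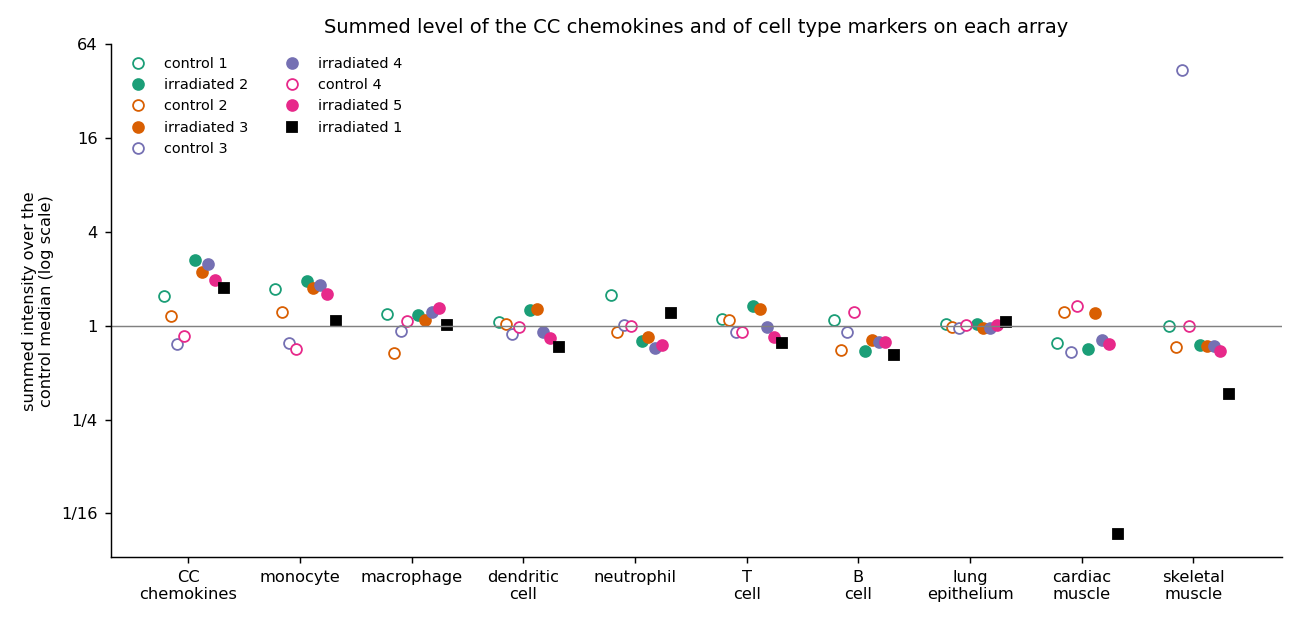
Summed normalized intensity of the CC chemokines and of each marker list on each array, divided by the median of the control arrays (vertical axis, log scale; open circles control, filled symbols irradiated, colours scan pairs). The sum of the CC chemokines, of which Ccl6 is the brightest, is 42357 to 85562 on control and 97131 to 146460 on irradiated arrays, irradiated 1 is lowest in cardiac muscle markers, and control 3 is highest in skeletal muscle markers.

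Of the 25 other CC ligands and receptors reported here, 15 were higher and 10 lower, and none passed (limma, adjusted p under 0.05). At an unadjusted p under 0.05 there were 5, all lower in the irradiated arrays, against 3907 of the 39303 probes in either direction. The median log2 difference was 0.17 over 12 ligands and 0.07 over 13 receptors. Within the pairs, 8 were higher in all 4 pairs and 6 were lower in all 4. Of all probes, 14.7% were higher and 16.8% were lower in all 4. With the pair as a block none of the 25 passed, and 13 had an unadjusted p under 0.05 (limma), against 20.9% of all probes. With the pairs as a random block 3 passed, Ccl21b, Ccl27a and the atypical receptor Ccrl2, all lower in the irradiated arrays, where 3.28% of all probes were lower. Ccrl2, named after its values were seen, then had a log2 difference of −0.33 (limma adjusted p = 0.0404).

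Ccr2, the receptor of Ccl2, Ccl7 and Ccl12 on monocytes, was at 11.26 ± 0.21 (SD, n = 4) in control and 11.35 ± 0.45 (SD, n = 5) in irradiated arrays. Its log2 difference of 0.08, with a 95% confidence interval of −0.40 to 0.56, did not pass (limma adjusted p = 0.965), and it was −0.11 without irradiated 2 and −0.01 without control 3. Within the pairs it was 0.75, −0.24, 0.21 and −0.02.

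The receptors Ccr1, Ccr4 and Ccr8 did not pass either. Ccr1 had a log2 difference of 0.51 ± 0.37 (SE, limma adjusted p = 0.741) and was well above background on 2 of 4 control and 3 of 5 irradiated arrays. The difference of Ccr1 was 0.32 without irradiated 3 and 0.79 without control 1. Ccr4 had one of 0.52 ± 0.33 (SE, limma adjusted p = 0.703), and was higher in all 4 pairs, with a blocked difference of 0.70 ± 0.12 (SE, limma adjusted p = 0.0522). Ccr8 had one of 0.38 ± 0.48 (SE, limma adjusted p = 0.889) on its brighter probe and −0.06 on its dimmer probe, and was at −0.03 with the mean of both. On the brighter probe it was 0.06 without control 4 and 0.67 without irradiated 5.

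Among the ligands, Ccl27a was the one whose groups did not overlap. Its brightest probe was lower by 0.29 on the log2 scale (limma adjusted p = 0.170), where 1.65% of all probes did not overlap in that direction, and its 4 probes lay between −0.29 and 0.19. Ccl27a, named after its values were seen, and the lymphatic chemokines Ccl21a and Ccl21b belong to families of near-identical copies that a probe may not separate. Ccl21a was lower by 0.53 and Ccl21b by 0.47 on the log2 scale, and neither passed (limma adjusted p = 0.448 and 0.360). With the pairs as a random block Ccl21b was at −0.49 (limma adjusted p = 0.0443) and Ccl27a at −0.29 (limma adjusted p = 0.0087), and both passed.

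**Figure D5:**
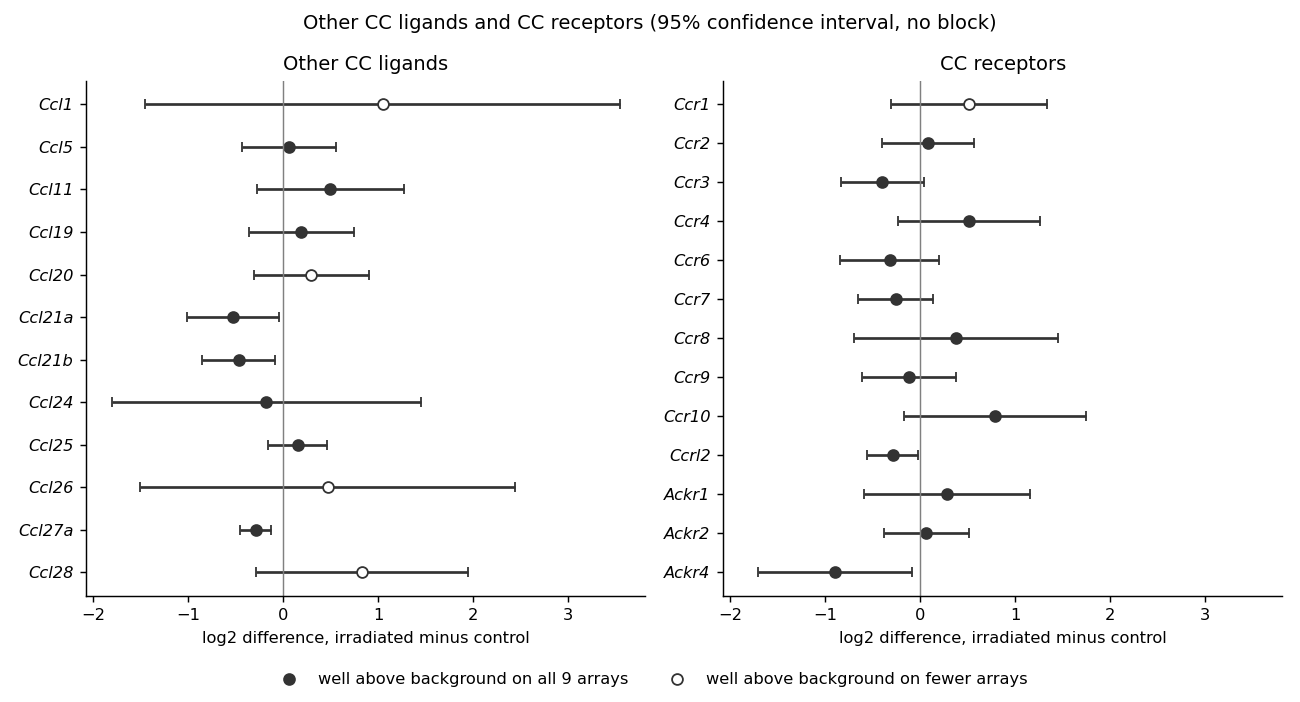
Log2 difference, irradiated minus control (horizontal axis), with 95% confidence intervals, of 12 other CC ligands and 13 CC receptors without a block; open circles mark probes that were not well above background on all 9 arrays. Most intervals include 0, and none of the genes passed the test across all probes.

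The pattern of Ccl6 over the 9 arrays was set beside that of 15226 genes that were well above background on every array. The nearest were Atp6v0d2, a subunit of the vacuolar proton pump of macrophages and osteoclasts, with a Pearson correlation of 0.98 and a Spearman correlation of 0.98, Bpifa2, a secreted protein of the BPI fold family, with 0.97 and 0.92, and Mrc1, the macrophage mannose receptor, with 0.97 and 0.80. The 9 arrays of both groups enter these correlations, so the difference between groups is part of them. Bpifa2 passed the test (log2 difference 1.96 ± 0.21 SE, limma adjusted p = 0.0161), and Atp6v0d2 (1.07 ± 0.19 SE, limma adjusted p = 0.0557) and Mrc1 (0.60 ± 0.11 SE, limma adjusted p = 0.0652) did not.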

How the data were processed

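The values that the authors deposited for each array are intensity values written by Agilent's Feature Extraction program, with no normalization between arrays: a processed signal corrected for background, a median signal per spot and the median background around it. A second deposited file holds the intensity values after normalization, and spots were numbered by their place on the scanner image to match it. The build and annotation behind the array design are not given in the sources used here. Gene names, gene order and promoters come from RefSeq tables of GRCm38.p6. The files hold no counts, and the number of arrays limits the precision.

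Control spots and uneven spots were left out. A spot was kept where its median signal exceeded 1.4 times its background, the factor in the methods, on 4 or more of the 9 arrays. The processed signal was log2-transformed and quantile normalized, and spots of a probe were averaged, which left 39303 probes. Of 39429 gene probes, 26055 were named through RefSeq accessions. A gene is shown by its brightest probe. Groups were compared with limma 3.58.1 in R 4.3.3 (lmFit, eBayes with an intensity trend) and Benjamini-Hochberg adjustment over all probes. The scripts were tested on simulated data with known changes. All calls use an adjusted p under 0.05. Lung tissue from pooled RNA gives no replicate animals, so p-values measure the spread between these arrays.

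Every CC chemokine was named with its value on each array. Of the other CC ligands and receptors, those past the threshold and Ccr1, Ccr2, Ccr4 and Ccr8 were named, and Ccl21a, Ccl21b, Ccl27a and Ccrl2 were added after their values were seen. One gene of that list is not reported here and is left out of its counts. For a member past the threshold, the 3 genes with the highest Pearson correlation over the arrays were named, and of each marker list the 2 brightest genes could be. Further markers (Adgre1, Cd14, Mertk, the C1q genes, Marco, Siglecf, Batf3, Fscn1, Xcr1, F13a1, Mmp9, Hopx, Cldn18 and Myh6) were named after their values were seen. The marker lists cover monocytes, macrophages, dendritic cells, neutrophils, T cells, B cells, lung epithelium, cardiac muscle and skeletal muscle. The members, lists and motifs were chosen with earlier results of these data known. The alternatives were normexp, 75th percentile scaling, both ends of the background filter, the authors' table, each array left out, replicate and scan pair blocks, no intensity trend, array weights, a mean over the probes of each gene and an adjusted p under 0.1. The scan pairs correlated in their deviations (0.28, 0.20, 0.33 and 0.46 for the 4 pairs).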

Additional observations from a re-analysis of the deposited data

Results flagged for a closer look

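Among 88 groups of arrays tested, each group of 1 gene or list, 8 held an array that stood apart from the rest by Dixon's criterion, which chance gives in about 5% of groups (4.4 of 88). Ccl2 was at a log2 value of 9.63 on irradiated 1, against 11.60 to 12.37 on the other irradiated arrays. Ccl4 was at 8.70 on control 3, against 9.29 to 9.39 on the other controls. On irradiated 2, Ccl24, an eosinophil chemokine, was at 10.99 against 6.96 to 7.86, Ccr2 was at 12.12 against 10.97 to 11.22, and Ccl20 was at 3.12 against 1.88 to 2.02, without being well above background on any array. Ackr1, the atypical receptor that binds chemokines on venules, was at 6.10 on irradiated 1, against 7.60 to 8.15.

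Relative to the control mean of each gene, the cardiac muscle markers averaged −5.97 on the log2 scale on irradiated 1, against −0.46 to 0.40 on the other irradiated arrays. The skeletal muscle markers averaged 4.61 on control 3, against −1.995 to −1.23 on the other controls.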

How the results depend on the processing

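Of 210 recomputed log2 differences of the members (21 alternatives for each gene), none changed direction and 185 kept their side of the threshold. Another 12 moved past the threshold. The 13 that lost their call were all of Ccl6, the member that passed as reported. Ccl6 kept its call in 8 of its 21 alternatives. The count of CC chemokines past the threshold was 1 as reported, where 131 of all 39303 probes passed. It was 0 with 75th percentile scaling (123 of all probes), with the authors' table (44) and without the intensity trend (44). With 1 array left out it was 0 to 3, where 5 to 482 of all probes passed. It was 4 with the scan pair block (1100 of all probes) and 6 with the pairs as a random block (2899). With the replicate block it was 0, where 1 of all probes passed. The replicate numbers gave correlations of deviations of 0.06, −0.02, −0.05 and −0.17 for numbers 1 to 4, so they do not pair the arrays. The count of members whose groups do not overlap, 3 as reported, was 1 with the authors' table, 2 with 75th percentile scaling, 6 without control 3 and irradiated 1 together and 3 to 6 with 1 array left out. The scan pair block, tried under further settings after seeing the data, called 4 members, 7 with the background filter on all 9 arrays, 2 with the authors' table, 0 without the intensity trend and 0 to 3 with 1 pair left out. For these further settings the share of all probes called is not given here, so the changes cannot be called particular to the members. Of the other CC ligands and receptors, 3 passed with the random block (Ccl21b, Ccl27a and Ccrl2, all lower in the irradiated arrays, against 2899 of 39303 probes in either direction), and 0 as reported. The cause of these changes was not tested.

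Among the other CC genes, 21 of 523 recomputed differences changed direction, in 9 genes, none past the threshold. With 1 array left out the log2 difference of Ccl5 was between −0.093 and 0.17, Ccl24 was at −0.91 to 0.093, Ccl26 at −0.24 to 1.06, Ccr2 at −0.11 to 0.18, Ccr9 at −0.23 to 0.11 and Ackr2 at −0.10 to 0.21. Ccl20 was at −0.18 with the authors' table. Without control 3 and irradiated 1, Ccl24 was at 0.0012, Ccl25 at −0.0105, Ccr9 at 0.19 and Ackr2 at −0.0069. With the replicate block Ccl24 was at 0.033 and Ccl26 at −0.24, and with the scan pair block Ccl24 was at 0.022. With array weights Ccl24 was at 0.054, and with the mean of all probes Ccr8 was at −0.033. Dim signals limit Ccl22, Ccl1, Ccl20, Ccl26, Ccl28 and Ccr1, each below the level called well above background on some arrays.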
